A study of Mus musculus with 11 samples.

Results

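Mouse embryonic stem (ES) cell lines without the DNA methyltransferase Dnmt1 (the TKO family) were compared with lines that kept it (the DKO family), by polyA RNA-seq. All lines derived from J1 ES cells of strain 129S4/SvJae and were grown with LIF and serum on irradiated mouse embryonic fibroblasts. The parent of the TKO family had lost Dnmt1, Dnmt3a and Dnmt3b. The parent of the DKO family had lost Dnmt3a and Dnmt3b and kept Dnmt1, so that every line of both families carries the loss of both de novo enzymes. In the other lines 1 enzyme had been put back: Dnmt3b1, Dnmt3a1 (the longer form of Dnmt3a) or Dnmt3a2 (its shorter form). The members were chosen by column name: 10 of the 11 libraries, with 6 in the TKO family (1 of the parent, 2 each of TKO+Dnmt3a1 and TKO+Dnmt3a2, 1 of TKO+Dnmt3b1) and 4 in the DKO family (1 of the parent and 1 of each add-back line). The remaining library, wild type (WT), entered no test and is given beside the values. How the enzymes were put back, and whether a line is 1 clone, is not given in the sources used here. The loss of Dnmt1 and the history of each family's lines cannot be told apart.

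Dnmt1 copies methylation of CG sites onto the new DNA strand after replication, with Uhrf1 as the cofactor that brings it to the site. Dnmt3a and Dnmt3b methylate DNA that carried no mark, with Dnmt3l as a partner that lacks activity of its own. In ES cells methylation is known for silencing germline genes, several X-linked gene families, imprinted alleles and retroelements.

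The implied depth was 21.74 to 32.96 M reads per library in the TKO family and 24.92 to 32.76 M in the DKO family. All 10 ES cell markers were at 1 RPKM (reads per kilobase of transcript, scaled to library depth) or more in all 10 libraries. The summed RPKM of 15 fibroblast markers, which the feeder layer also expresses, was 503.5 to 2090 in the TKO family and 178 to 1554 in the DKO family. DKO+Dnmt3a2 was lowest at 178, and the libraries with Dnmt3b1 were highest in both families (2090 and 1554). The summed RPKM of 13 macrophage markers ran from 57.01 to 300.5 and from 12.46 to 275.6, and 6 of the 13 were at 0 in DKO+Dnmt3a2 and none in the other 9 libraries. Of these 28 markers 1, Sparc, differed between the families at the threshold used here.

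Dnmt1 itself separated the families. Its level was 6.73 RPKM at the lowest, 8.31 at the median and 12.4 at the highest in the TKO family. In the DKO family it was 74.5 in the parent and 59.8, 63.1 and 55.9 with Dnmt3a1, Dnmt3a2 and Dnmt3b1 put back, and WT was at 71.0. The 6 TKO libraries lay below the 4 DKO libraries, and Dnmt1 fell by 2.78 on the log2 scale (SE 0.17, limma adjusted p = 0.000124). The highest TKO family value came from TKO+Dnmt3b1, the library with the most fibroblast marker RNA, and the part of feeder RNA in it was not tested. Dnmt3a was at 4.24 RPKM in TKO and 3.63 in DKO, against 22.7 in WT, and did not pass the test between families (difference 0.59, SE 0.20, limma adjusted p = 0.0671). Dnmt3b was at 45.3 RPKM in the library labelled TKO, 5.68 in DKO and 25.03 in WT. The table holds 1 value per gene and does not show which exons held reads, so these levels do not show whether a deleted part was transcribed.

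Across the transcriptome the families differed at 2996 of 14196 genes tested (21.1%), of which 2046 were higher (14.4%) and 950 lower (6.69%) in the TKO family. These calls are from limma at a Benjamini-Hochberg adjusted p under 0.05, on log2(RPKM + 0.5), with the enzyme put back as a second term. On this scale the difference is understated for genes of low level. The difference was 1 or more for 444 of the higher and 147 of the lower genes. In 955 genes (6.73%) all 6 TKO libraries lay above all 4 DKO libraries, and in 469 (3.30%) all lay below. The median over all genes was 0.11. With median ratio scaling it was 0.01, and the split moved from 2046 higher and 950 lower to 1469 higher and 1580 lower. Quantile normalization gave 1229 higher and 1517 lower, and removing each chromosome's median gave 1563 and 1359.

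The count depended on single libraries. Without DKO+Dnmt3a2 650 genes were called, 458 higher and 192 lower. Leaving out the only library of an add-back state in 1 family also takes the other family's libraries of that state out of the estimate of the family difference, so such a drop is not that of 1 library alone. The count was 1098 without DKO+Dnmt3a1, 1787 without TKO+Dnmt3b1, 1793 without DKO+Dnmt3b1 and 1812 without the second library of TKO+Dnmt3a1. Without both Dnmt3b1 libraries and DKO+Dnmt3a2, which had the highest and the lowest fibroblast marker sums, it was 119 (85 higher, 34 lower). With the mean fibroblast marker level as a covariate it was 1148.

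The DKO parent, with neither de novo enzyme put back, reached into the TKO range more often than its add-back lines. Of the 2046 genes called higher, the DKO parent was at or above the lowest TKO family library for 838 (41.0%). DKO+Dnmt3b1 was so for 490 (23.9%), DKO+Dnmt3a1 for 187 (9.1%) and DKO+Dnmt3a2 for 136 (6.6%). Among the 950 called lower the same shares were 37.5%, 28.6%, 7.4% and 6.2%. Whether the family difference of the parents differed from that of the add-backs was tested gene by gene, and limma called 0 of 14196 genes (0%), with 1484 at an unadjusted p under 0.05 and a smallest adjusted p of 0.34. The spread in this test comes only from the 2 lines with 2 libraries (2 residual degrees of freedom). A count of 0 thus does not show that the family difference was the same in parents and add-backs.

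WT, which has all 3 enzymes, was placed against both ranges for the 444 genes that were higher by 1 or more. It lay within the DKO family's range alone for 227 (51.1%), within the TKO range alone for 77 (17.3%) and within both for 29 (6.5%). Among the 147 lower genes it lay within the DKO range alone for 58 (39.5%), within the TKO range alone for 43 (29.3%) and within both for 9 (6.1%). Over all 2046 genes called higher, WT lay within the DKO range alone for 42.5% and within the TKO range alone for 22.4%. Over all 950 called lower these shares were 31.1% and 32.5%, so the order among lower genes depended on the cut. WT is 1 library, so this is a description.

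The largest rises were in genes of unlike function. Ndufs5, a subunit of mitochondrial complex I, Ube2l6, an enzyme that conjugates the interferon-induced modifier Isg15, and Cyct, the testis form of cytochrome c, lay far above the DKO range in every TKO library. The bases before their start sites are shown because CG is the site that Dnmt1 methylates. They are from RefSeq (GRCm38.p6), 250 bases up to the start, 5′ to 3′ on the gene's strand, with each CG in capitals, at chr4:123718187-123718436 (minus), chr2:84798578-84798827 (plus) and chr2:76360454-76360703 (minus).
Ndufs5: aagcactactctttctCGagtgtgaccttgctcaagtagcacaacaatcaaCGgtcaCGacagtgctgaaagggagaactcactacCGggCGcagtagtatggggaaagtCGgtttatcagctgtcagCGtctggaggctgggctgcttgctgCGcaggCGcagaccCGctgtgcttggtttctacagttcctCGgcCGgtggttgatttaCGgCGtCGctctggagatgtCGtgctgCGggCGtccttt
Ube2l6: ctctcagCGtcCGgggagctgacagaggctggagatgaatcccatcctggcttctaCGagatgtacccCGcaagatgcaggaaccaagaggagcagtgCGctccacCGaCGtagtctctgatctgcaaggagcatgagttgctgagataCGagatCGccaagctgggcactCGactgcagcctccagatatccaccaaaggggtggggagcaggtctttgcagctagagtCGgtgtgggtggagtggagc
Cyct: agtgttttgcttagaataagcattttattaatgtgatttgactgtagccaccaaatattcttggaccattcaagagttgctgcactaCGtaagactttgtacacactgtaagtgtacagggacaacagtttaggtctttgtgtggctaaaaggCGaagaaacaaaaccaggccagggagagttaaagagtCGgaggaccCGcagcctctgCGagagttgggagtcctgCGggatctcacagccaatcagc
These windows hold 18, 11 and 6 CG. Of the 32851 such windows of 250 bases, 21.7%, 35.6% and 50.4% hold as many or more, and 92.1% hold at least 1. The count describes the letters only, since methylation was not measured here.

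Ndufs5 was at 25.1, 31.3 and 32.3 RPKM (lowest, median, highest) in the TKO family. In the DKO family it was at 1.33 in the parent, at 2.12, 0.548 and 3.35 with Dnmt3a1, Dnmt3a2 and Dnmt3b1 put back, and WT was at 0.903. The difference was 3.89 on the log2 scale (SE 0.28, limma adjusted p = 0.000199), the largest rise among the named genes. Ndufs5 has processed copies in the genome, and how the authors counted reads that match several places is not stated, so that its level is uncertain.

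Ube2l6 was at 22.6, 29.2 and 39.0 RPKM in the TKO family. In the DKO family, in the same order as for Ndufs5 and from here on, it was at 3.56, 1.52, 1.03 and 2.88, with WT at 1.14. The groups did not overlap (3.58, SE 0.26, limma adjusted p = 0.000219). Its neighbour Smtnl1, a smoothelin-like gene of smooth and skeletal muscle, was at 7.46, 13.6 and 19.14 RPKM in the TKO family and at 2.30, 1.09, 0.651 and 0.894 in the DKO family (3.13, SE 0.26, limma adjusted p = 0.000378). Serping1 on the other side of Ube2l6 rose by less (0.69, SE 0.17, limma adjusted p = 0.0232), and Clp1 and Timm10, the next genes outward, were at -0.09 and 0.06 (limma adjusted p = 0.614 and 0.785). Slc43a1, beyond Timm10, rose by 0.97 (SE 0.20, limma adjusted p = 0.014). The differences of 3 or more were thus in Ube2l6 and Smtnl1 alone among these 6 genes, and Serping1, Clp1, Timm10 and Slc43a1 were named after their values were seen.

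Cyct was at 28.5, 59.9 and 98.5 RPKM in the TKO family and at 5.75, 5.47, 5.24 and 3.88 in the DKO family, with WT at 6.004. All TKO libraries were above all DKO libraries (3.37, SE 0.23, limma adjusted p = 0.00018). Cyct is similar in sequence to the somatic gene Cycs, and shared reads could move its level.

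Ubd, which encodes the ubiquitin-like modifier Fat10, was listed at 0 in all 4 DKO libraries and in WT. Its level in the TKO family was 1.70, 4.34 and 9.59 RPKM. No fold is given against a group at 0. Stra8, a gene of meiotic entry that responds to retinoic acid, was at 26.5, 71.6 and 129 RPKM in the TKO family and at 10.8, 9.33, 7.24 and 2.36 in the DKO family (2.91, SE 0.31, limma adjusted p = 0.00118). WT stood at 28.5 RPKM, inside the TKO range. Apoa2, an apolipoprotein of high-density lipoprotein, was at 6.41, 9.41 and 13.96 RPKM against 1.04, 0.461, 0.134 and 0.702 (3.33, SE 0.30, limma adjusted p = 0.000537). Mapt, the microtubule protein tau, was at 4.35, 7.71 and 8.81 RPKM against 0.761, 0.543, 0.548 and 0.673 (2.75, SE 0.18, limma adjusted p = 0.000176). Ipp, Tesc, Nell2, Serpina3m, Mir147 and Mt4 were the others among the 15 largest rises without overlap, with differences of 2.54 (Nell2) to 3.09 (Ipp). Without DKO+Dnmt3a2 each of the 15 largest rises kept its call except Xlr3a, described with the X-linked families.

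**Figure D1:**
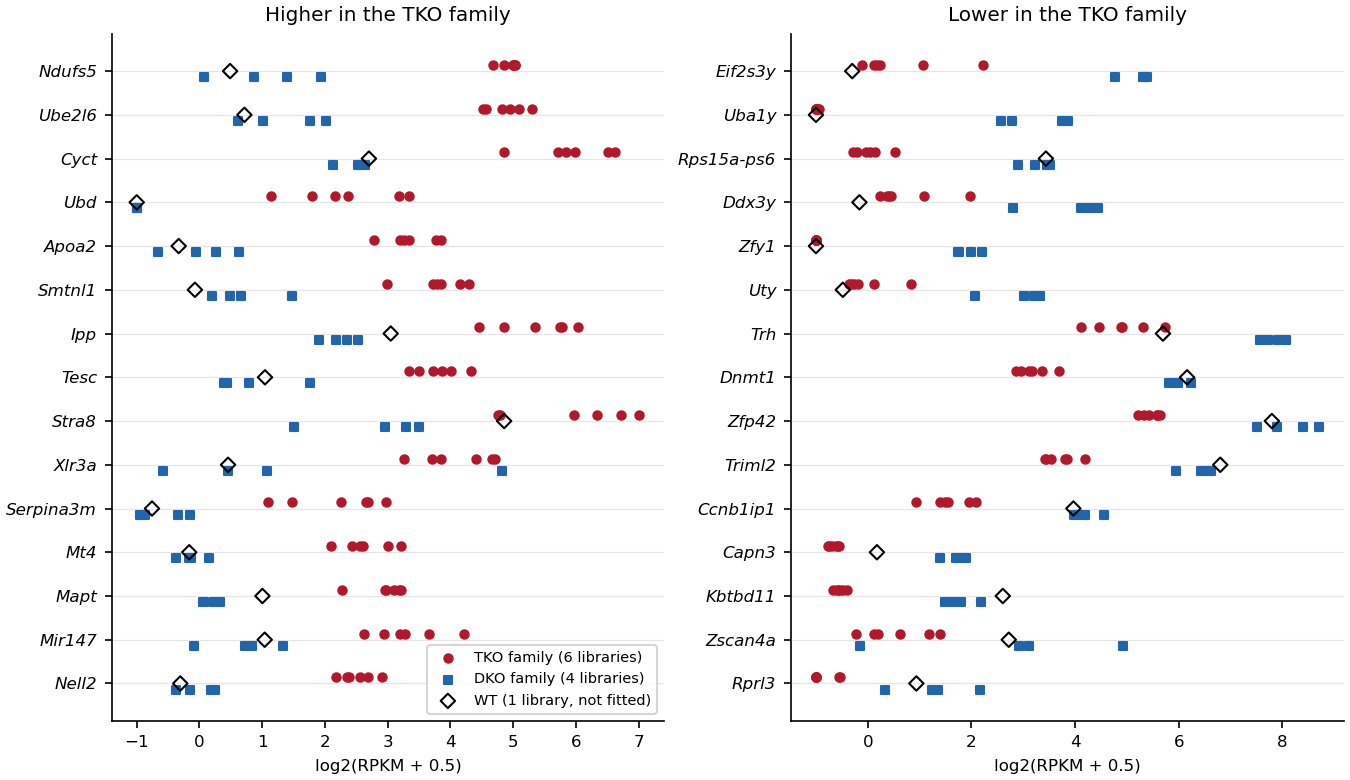
Levels of the 15 largest rises (left) and 15 largest falls (right), as log2(RPKM + 0.5) in each library. Points are TKO family libraries, squares are DKO family libraries and diamonds are WT. Xlr3a on the left and Zscan4a on the right are the genes in which the families overlap, each through 1 DKO family library, the DKO parent.

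Zfp42 (Rex1), a zinc finger protein and a classical marker of naive ES cells, was the most abundant of the large falls. It was at 36.5, 44.7 and 49.1 RPKM in the TKO family, against 182, 335, 415 and 237 in the DKO family and 222 in WT. The groups did not overlap, and it fell by 2.72 on the log2 scale (SE 0.18, limma adjusted p = 0.00018). The 250 bases before its start, at chr8:43307010-43307259 (minus) in the same build, are shown as above, with each CG in capitals.
Zfp42: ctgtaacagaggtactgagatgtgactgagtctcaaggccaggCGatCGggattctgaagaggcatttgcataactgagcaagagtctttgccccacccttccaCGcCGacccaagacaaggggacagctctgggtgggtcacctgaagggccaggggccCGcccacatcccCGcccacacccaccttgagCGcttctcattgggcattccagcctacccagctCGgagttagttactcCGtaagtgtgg
This window holds 9 CG, and 40.3% of all windows hold as many or more.

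The genes on both sides of Zfp42 fell too. Triml2, of the tripartite motif-like family, was at 10.2, 12.3 and 17.7 RPKM in the TKO family and at 98.1, 85.5, 91.2 and 61.0 in the DKO family, with WT at 111. It fell by 2.67 (SE 0.12, limma adjusted p = 7.05e-05), with no overlap. Triml1 fell by 1.97 (SE 0.15, limma adjusted p = 0.000219) and Frg1 by 0.83 (SE 0.13, limma adjusted p = 0.00548), and neither overlapped. Fat1, a large cadherin, fell by 0.70 (SE 0.21, limma adjusted p = 0.0419) and overlapped. Without DKO+Dnmt3a2 4 of these 5 genes kept the call. The genes just outside this run of 5, Asah1 and Gm6329, did not pass the test (0.23 and -0.18, limma adjusted p = 0.186 and 0.61). Triml1, Frg1 and Fat1 were named after their values were seen.

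Rps15a-ps6, a ribosomal protein pseudogene, was at 0.323, 0.507 and 0.946 RPKM in the TKO family and at 10.5, 8.81, 10.9 and 6.99 in the DKO family, with WT at 10.3 (fell by 3.27, SE 0.20, limma adjusted p = 0.000133). Reads of the gene Rps15a can match it, so its level is uncertain. Trh, the thyrotropin-releasing hormone precursor, was at 16.9, 29.2 and 52.9 RPKM against 188, 211, 241 and 268 (fell by 2.85, SE 0.28, limma adjusted p = 0.000717). WT stood at 51.3, inside the TKO range. Ccnb1ip1, a ubiquitin ligase needed for meiotic crossing over, was at 1.41, 2.36 and 3.74 RPKM against 15.3, 17.3, 17.7 and 23.0 (fell by 2.61, SE 0.19, limma adjusted p = 0.000219). Capn3, a muscle calpain, and Kbtbd11 were at 0.253 RPKM or less in every TKO library and at 2.13 or more in every DKO library. None of these 5 overlapped between families, and each kept its call whichever library was left out.

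**Figure D2:**
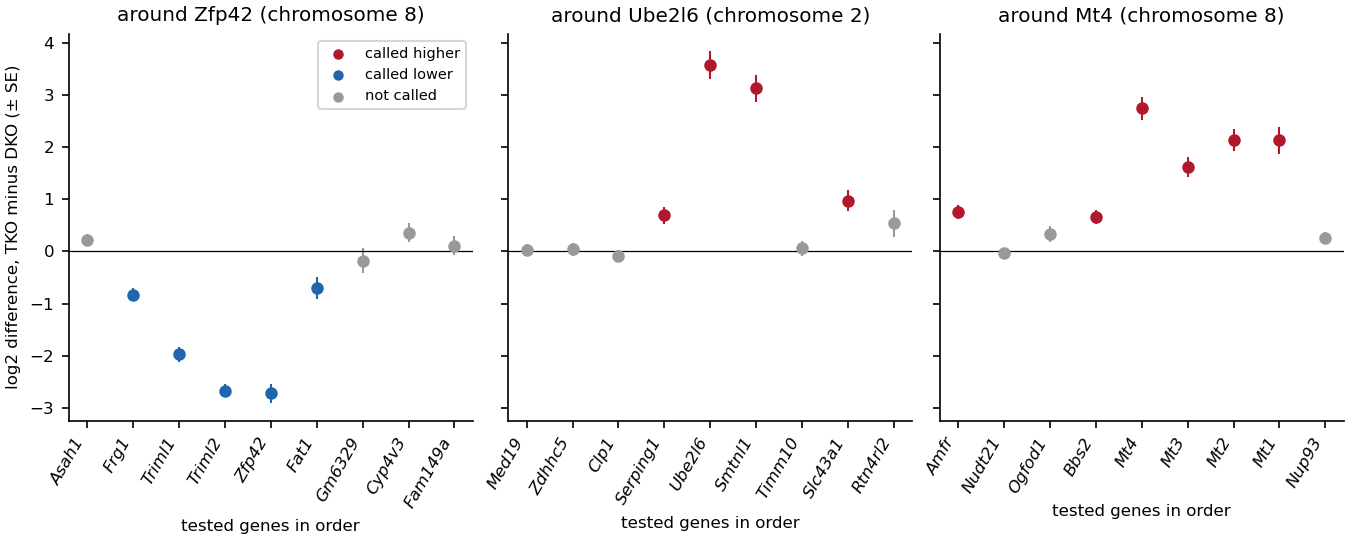
Fitted log2 difference (TKO minus DKO family, with SE) of the tested genes in chromosome order around Zfp42, Ube2l6 and Mt4. Red and blue points were called higher or lower and grey points were not. Frg1 to Fat1 fell together, Ube2l6 and Smtnl1 stood above their neighbours, and the 4 metallothionein genes rose together.

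Germline genes whose promoters are methylated in somatic cells were more often higher than lower, as were all called genes (68.3% higher). Over all genes, 14.4% rose and 6.69% fell. Of 44 tested, 13 rose and 5 fell (40.9% called, against 21.1% of all genes). The median difference was 0.36 (0.11 over all genes). Beside Cyct, the rises included Dnajb13, a sperm axoneme protein, Smc1b, the meiotic cohesin subunit, and 1700013H16Rik. Dnajb13 was at 2.56, 4.09 and 8.41 RPKM in the TKO family and at 0.68, 0.384, 0.274 and 0.532 in the DKO family, with no overlap (2.36, SE 0.24, limma adjusted p = 0.000904). Smc1b was at 9.24, 16.03 and 19.5 RPKM against 17.7, 1.81, 1.47 and 2.79 (1.97, SE 0.42, limma adjusted p = 0.0152). The 17.7 of the DKO parent lay inside the TKO range, and only its 3 add-back lines were low. 1700013H16Rik showed the same order, with 16.7 RPKM in the DKO parent and 0.424, 0.342 and 3.08 in its add-back lines, against 8.47 to 48.3 in the TKO family (3.18, SE 0.63, limma adjusted p = 0.0118). The list's median was -0.08 between the parents and 0.50, 0.70 and 0.42 between lines with Dnmt3a1, Dnmt3a2 and Dnmt3b1. The 5 that fell were Rpl10l, Sycp3, D1Pas1, Tdrd1 and Syce2, named after their values were seen. Without DKO+Dnmt3a2, 6 of the 18 called members kept the call. Smc1b and 1700013H16Rik then had limma adjusted p = 0.09 and 0.073, and they also lost the call without DKO+Dnmt3a1.

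The X-linked Xlr, Mage and Pnma genes, most of them testis or placenta genes, rose, with a median of 0.98. Of 21 tested, 13 were called higher and 0 lower (61.9% called, against 21.1% of all genes). Limma put 0 of the 21 lower at an unadjusted p under 0.05 as well, and 2 differences were below 0. Pnma5, a paraneoplastic antigen family member, was at 17.1, 26.6 and 36.7 RPKM in the TKO family and at 18.3, 4.18, 4.19 and 5.45 in the DKO family, with WT at 2.27 (1.96, SE 0.25, limma adjusted p = 0.00243). Xlr3a was at 9.09, 17.4 and 25.7 RPKM against 27.7, 0.871, 0.169 and 1.60, with WT at 0.872 (2.86, SE 0.63, limma adjusted p = 0.0167). The DKO parent was thus above all 6 TKO libraries in Xlr3a, and its 3 add-back lines were near WT. Xlr3c repeated this, with 21.5 RPKM in the DKO parent and 0.498 or less in its add-back lines, against 2.58 to 9.87 in the TKO family. Xlr4a was at 4.40 RPKM in the DKO parent and at 0.235, 0 and 0.766 in its add-back lines, against 1.83 to 6.70. Between the parents the list's median was 0.08, and it was 1.18, 1.39 and 1.08 with Dnmt3a1, Dnmt3a2 and Dnmt3b1 put back. Without DKO+Dnmt3a2 1 of the 13 kept the call and without DKO+Dnmt3a1 2 did. The Xlr3 and Xlr4 genes are close copies whose single values are uncertain.

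The Rhox genes, an X-linked homeobox cluster of the reproductive tract and placenta, gave 4 called higher and 0 lower of 7 tested. That is 57.1% called, against 21.1% of all genes, and the list's median was 1.02. Limma put 6 higher and 0 lower at an unadjusted p under 0.05. Rhox1 was at 5.49, 9.05 and 12.3 RPKM in the TKO family and at 6.66, 0.996, 0.71 and 1.82 in the DKO family, with WT at 0.902 (2.14, SE 0.28, limma adjusted p = 0.0029). Rhox6 was at 6.35, 17.8 and 32.4 RPKM against 6.63, 3.596, 4.34 and 1.999 (1.90, SE 0.33, limma adjusted p = 0.00701). Both overlapped through the DKO parent. Without DKO+Dnmt3a2 Rhox1 and Rhox6 kept the call, and Rhox9 and Rhox2a had limma adjusted p = 0.14 and 0.2.

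**Figure D3:**
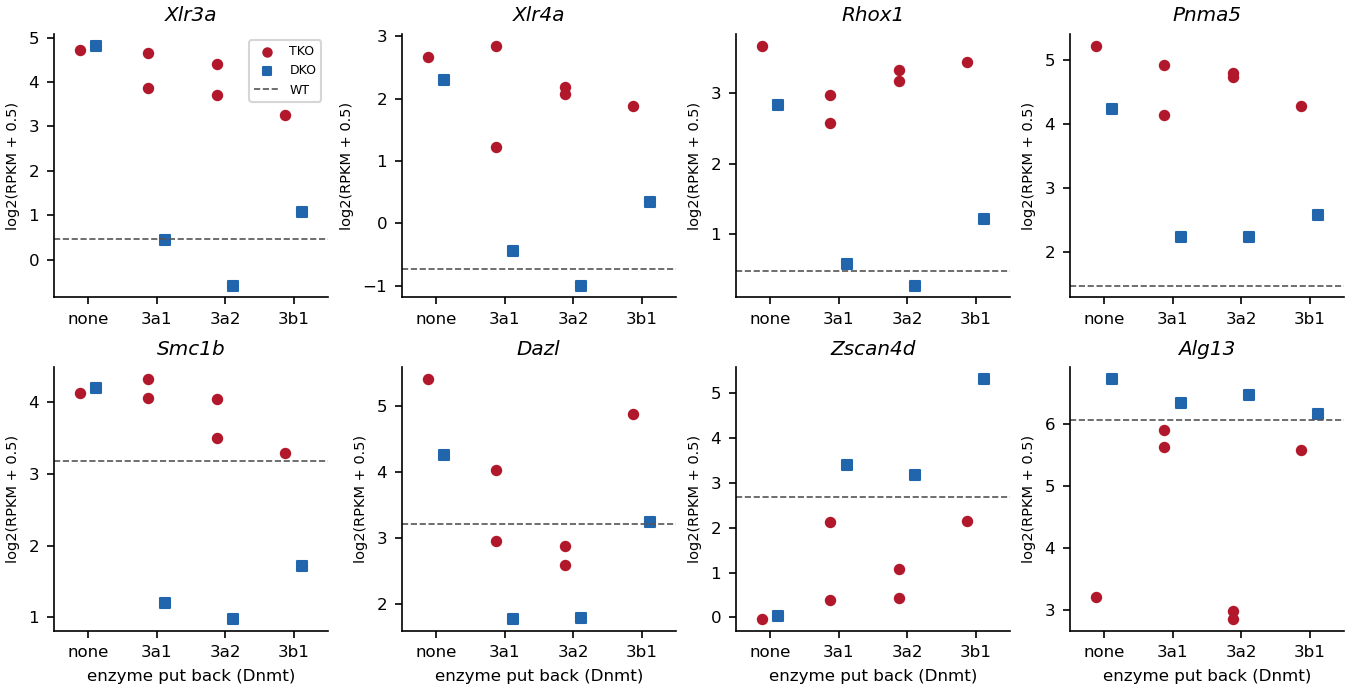
Levels of 8 genes as log2(RPKM + 0.5) by the enzyme put back. Circles are TKO family libraries, squares are DKO family libraries and the dashed line is WT. For Xlr3a, Xlr4a and Smc1b the DKO parent lies at the level of the TKO family and its add-back lines are low, for Zscan4d both parents are low, and Alg13 forms 2 levels within the TKO family.

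Genes of the 2-cell-like state, a rare ES cell state marked by Zscan4 genes, gave 8 called lower in the TKO family and 0 higher of 26 tested. Called members made up 30.8%, against 21.1% of all genes, with 18 not called and a list median of -0.78. Limma put 17 of the 26 lower and 0 higher at an unadjusted p under 0.05. Zscan4d was at 0.478, 1.23 and 3.95 RPKM in the TKO family and at 0.523, 9.97, 8.48 and 39.3 in the DKO family, with WT at 5.94 (fell by 1.99, SE 0.48, limma adjusted p = 0.0227). The DKO parent was as low as the TKO parent, at 0.523 against 0.478 RPKM, and the 3 DKO add-back lines lay above all TKO libraries. Zscan4a, Zscan4c and Zscan4f had the same order, at 30.0, 18.0 and 12.9 RPKM in DKO+Dnmt3b1 and 0.401, 0.162 and 0.147 in the DKO parent. The list's median was 0.04 between the parents and -0.68, -0.66 and -1.74 with Dnmt3a1, Dnmt3a2 and Dnmt3b1 put back. Without DKO+Dnmt3a2 0 of the 8 kept the call, without DKO+Dnmt3a1 1 did, and 2 did without either Dnmt3b1 library, where the median was -0.49. The Zscan4 genes are close copies that share reads. In bulk RNA, fewer cells in a state and less RNA per cell cannot be told apart, here and for the cell type lists that follow.

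Naive pluripotency genes moved in both directions. Of 29 tested, 6 rose and 8 fell (48.3% called, against 21.1% of all genes), with a median of -0.18. Nanog, a core pluripotency factor, rose, at 164, 269 and 443 RPKM in the TKO family against 164, 148, 162 and 149 in the DKO family (0.83, SE 0.20, limma adjusted p = 0.0234). Its lowest TKO value, in TKO+Dnmt3b1, was barely above the DKO parent, and it lost the call without TKO, DKO, DKO+Dnmt3a1 or DKO+Dnmt3a2 (limma adjusted p up to 0.1). Pramel6, a Prame family gene of naive cells, was at 0.575, 1.21 and 6.11 RPKM against 0.087, 0.232, 0.225 and 0.883 (1.58, SE 0.37, limma adjusted p = 0.022), and lost the call without DKO+Dnmt3a2. Zfp42 and Tdh, the threonine dehydrogenase of mouse ES cells, fell. Tdh was at 34.8, 77.0 and 111 RPKM in the TKO family and at 126, 162, 175 and 147 in the DKO family, with no overlap (fell by 1.18, SE 0.16, limma adjusted p = 0.00347). Gbx2 was at 7.61 RPKM in the DKO parent and at 49.9, 61.3 and 39.7 in its add-back lines, against 5.93 to 22.3 in the TKO family. It fell by 1.60 (SE 0.46, limma adjusted p = 0.0402) and lost the call in 7 of the 10 fits with 1 library left out. Of the 10 ES cell markers, Nanog rose, Zfp42, Lin28a and Esrrb fell, and 6 were not called. Lin28a, an RNA-binding protein that blocks let-7, fell by 0.69 (SE 0.14, limma adjusted p = 0.0115) and Esrrb by 0.28 (SE 0.09, limma adjusted p = 0.0499). Lin28a lost the call without DKO+Dnmt3a2 and Esrrb whichever library was left out.

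Formative and primed epiblast genes were lower in 6 and higher in 1 of 22 tested, with a median of -0.52. That is 31.8% called, against 21.1% of all genes. Fgf15, a secreted growth factor, was at 1.22, 1.81 and 3.36 RPKM in the TKO family and at 11.1, 8.11, 8.05 and 10.5 in the DKO family, with WT at 8.66 (fell by 2.03, SE 0.24, limma adjusted p = 0.00187). Spry4, an inhibitor of growth factor signalling, was at 10.9, 15.4 and 24.9 RPKM against 23.0, 53.9, 61.8 and 41.3 (fell by 1.37, SE 0.23, limma adjusted p = 0.00675). Otx2, a homeobox factor of the epiblast, split the TKO family, at 7.06 and 7.14 RPKM with Dnmt3a1 put back and at 0.585 to 1.74 in the other 4 libraries. The DKO family was at 13.05, 7.65, 6.35 and 5.31 (fell by 1.74, SE 0.44, limma adjusted p = 0.0276), and the call was lost without any of 4 libraries, DKO+Dnmt3a2 among them (limma adjusted p up to 0.14). The member that rose was Dnmt3b, given with the methylation genes.

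Primitive endoderm genes rose together, with a median of 0.90. Of 21 tested, 14 were called higher and 0 lower (66.7% called, against 21.1% of all genes). Cited1, a transcriptional coregulator, was at 2.30, 3.38 and 10.7 RPKM in the TKO family and at 2.57, 0.773, 0.719 and 0.941 in the DKO family (1.59, SE 0.16, limma adjusted p = 0.000884). Gata6, the factor that specifies primitive endoderm, was at 2.45, 5.40 and 7.30 RPKM against 1.43, 1.84, 0.965 and 3.55 (1.34, SE 0.28, limma adjusted p = 0.0145). Cubn, the endocytic receptor of visceral endoderm, was at 1.75, 3.03 and 7.72 RPKM against 1.16, 0.609, 0.675 and 3.06 (1.497, SE 0.23, limma adjusted p = 0.00516). Sparc, a matrix protein that parietal endoderm and fibroblasts express, was at 146, 166 and 357 RPKM against 101, 60.3, 35.8 and 229 (1.38, SE 0.19, limma adjusted p = 0.0034). All 4 overlapped, Cited1 through the DKO parent and the other 3 through DKO+Dnmt3b1. The list's median was 1.15 between the parents, 0.58 with Dnmt3a1, 0.98 with Dnmt3a2 and 0.61 with Dnmt3b1. Sparc is also in the fibroblast list, whose summed RPKM was 2090 and 1554 in the Dnmt3b1 libraries, where Sparc was highest. With the fibroblast level as a covariate 12 of the 14 kept the call, and without DKO+Dnmt3a2 7 did, Gata6 not among them (limma adjusted p = 0.086).

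Trophoblast genes rose as well, in 9 of 19 tested (47.4% called, against 21.1% of all genes), with 0 lower and a median of 0.99. Tfap2c, a factor of trophectoderm and germ cells, was at 18.2, 42.5 and 54.9 RPKM in the TKO family and at 17.7, 14.2, 17.0 and 7.39 in the DKO family (1.39, SE 0.12, limma adjusted p = 0.000456). Hand1, a factor of giant cells and of mesoderm, was at 3.89, 8.62 and 14.3 RPKM against 0.884, 2.05, 1.31 and 0.509 (2.39, SE 0.31, limma adjusted p = 0.00261). Neither overlapped. Esx1, an X-linked placental homeobox gene, was at 3.19, 6.72 and 8.99 RPKM against 4.98, 1.49, 0.954 and 0.492 (1.77, SE 0.28, limma adjusted p = 0.00516), with the DKO parent inside the TKO range and WT at 4.95. Without DKO+Dnmt3a2 7 of the 9 kept the call, Tfap2c, Hand1 and Esx1 among them. Mesoderm genes were higher in 5 and lower in 0 of 13 tested (38.5% called, against 21.1% of all genes), with a median of 0.40. They included Hand1 and Eomes, a T-box factor of mesendoderm and trophoblast, at 1.74, 2.43 and 2.93 RPKM against 0.541, 0.651, 0.662 and 1.43 (1.20, SE 0.17, limma adjusted p = 0.00363). Without DKO+Dnmt3a2 2 of the 5 kept the call. At an unadjusted p under 0.05 limma put 0 primitive endoderm, 0 trophoblast and 1 mesoderm gene lower.

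Neural genes did not move together, with 2 higher and 4 lower of 11 tested and a median of 0.04 (-0.08 with quantile normalization). The share called was 54.5%, against 21.1% of all genes. Pax6, a factor of neural progenitors and eye, was at 0.729, 1.19 and 3.02 RPKM in the TKO family and at 4.78, 5.05, 6.20 and 4.10 in the DKO family, with no overlap (fell by 1.47, SE 0.27, limma adjusted p = 0.00889). WT was at 1.048, inside the TKO range. Sox1, a neural plate factor of the SoxB family, was at 0.319, 0.997 and 2.68 RPKM against 3.07, 4.96, 4.96 and 4.08 (fell by 1.58, SE 0.37, limma adjusted p = 0.0214). Neurod1 fell and Irx3 rose. Pax6, Sox1 and Irx3 lost the call without DKO+Dnmt3a2 (limma adjusted p = 0.059, 0.11 and 0.11). Of 28 Hox genes tested 1, Hoxa9, was called (3.6%, against 21.1% of all genes). Hoxa9 rose by 0.63 (SE 0.18, limma adjusted p = 0.0408) and lost the call in 8 of the 10 fits with 1 library left out.

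**Figure D4:**
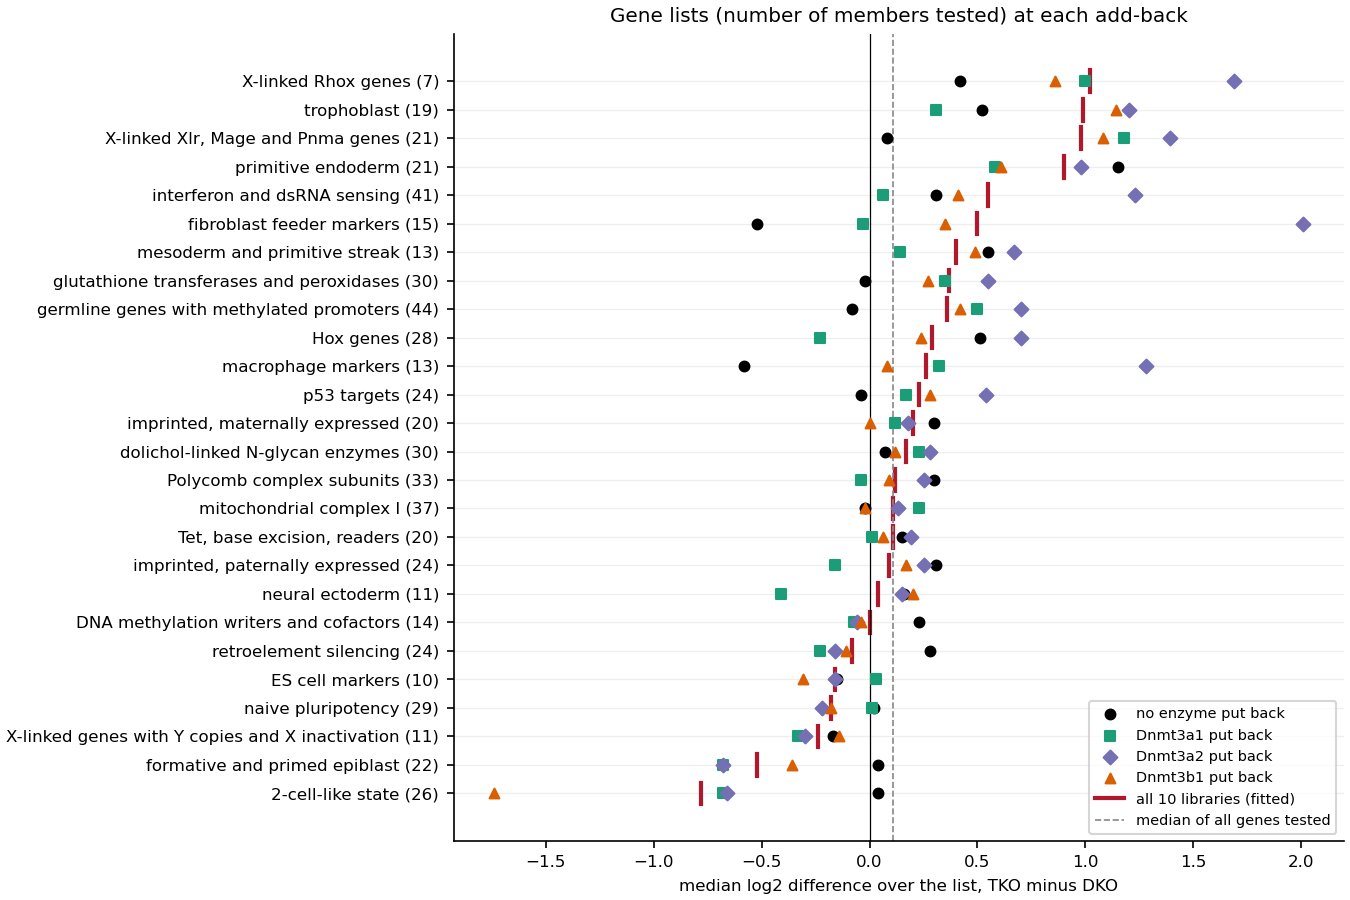
Median log2 difference (TKO minus DKO) of each gene list at each add-back state, with the fitted median over all 10 libraries as a red bar and the median of all genes as a dashed line. Y-linked genes (median -3.05) are outside the range shown. Medians of the Xlr, germline, 2-cell and epiblast lists are near 0 between the parents and larger in size between add-back lines, while primitive endoderm genes are above 0 in all 4.

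Among DNA methylation genes, 3 rose and 3 fell of 14 tested (42.9% called, against 21.1% of all genes). The median was 0 (-0.11 with quantile normalization). Dnmt3l was at 275, 368 and 416 RPKM in the TKO family and at 140, 187, 252 and 190 in the DKO family, with WT at 97.0 and no overlap between families (0.90, SE 0.14, limma adjusted p = 0.00489). Dnmt3b was at 20.9, 38.7 and 100 RPKM in the TKO family and at 5.68, 13.3, 14.7 and 29.6 in the DKO family (1.63, SE 0.27, limma adjusted p = 0.00682). Its highest value in each family came from the line with Dnmt3b1 put back, and reads of the added gene cannot be told apart from those of the resident one. Dppa3 (Stella), which keeps Uhrf1 from chromatin in oocytes and early embryos, was at 29.6, 38.6 and 118 RPKM against 60.2, 20.1, 27.4 and 13.6 (0.87, SE 0.10, limma adjusted p = 0.00187). Its parents, at 118 and 60.2 RPKM, were highest in both families. Uhrf1 was at 106, 124 and 137 RPKM against 111, 94.4, 88.5 and 119 and did not pass the test (0.26, SE 0.11, limma adjusted p = 0.12). Dnmt3l, Dnmt3b and Dppa3 kept the call whichever library was left out.

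Enzymes of demethylation and base excision and readers of methylated CG gave 4 higher and 2 lower of 20 tested. The share called was 30%, against 21.1% of all genes, and the median was 0.11, the same as all genes. Ung, the uracil glycosylase, was at 60.03, 68.0 and 71.1 RPKM in the TKO family and at 54.0, 41.6, 38.5 and 50.04 in the DKO family, with no overlap (0.57, SE 0.10, limma adjusted p = 0.009). Zbtb33 (Kaiso), a zinc finger reader, was at 3.32, 4.17 and 6.57 RPKM against 4.95, 7.35, 7.56 and 7.53 (fell by 0.59, SE 0.14, limma adjusted p = 0.022). Gadd45a and Gadd45b, stress genes linked to DNA repair, rose by 0.66 and 0.97 (limma adjusted p = 0.0384 and 0.0227). Without DKO+Dnmt3a2 none of the 6 kept the call, with Ung at limma adjusted p = 0.063. The median of the list was -0.02 with quantile normalization.

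Genes of the H3K9 methylation and Trim28 pathway, which silence retroelements, gave 4 lower and 0 higher of 24 tested, with a median of -0.08, and limma put 2 higher at an unadjusted p under 0.05. Suv39h1, Suv39h2 and Ehmt1 are H3K9 methyltransferases and Zfp932 is a KRAB zinc finger gene. Suv39h1 was at 6.83, 8.29 and 9.88 RPKM in the TKO family and at 10.99, 11.99, 12.96 and 11.6 in the DKO family (fell by 0.50, SE 0.12, limma adjusted p = 0.0212). Suv39h2 and Ehmt1 fell by 0.38 and 0.31 and also did not overlap. Zfp932 fell by 0.67 (SE 0.11, limma adjusted p = 0.00632), and of the 4 it alone kept the call without DKO+Dnmt3a2. The share called (16.7%) was near the 21.1% of all genes. Polycomb subunits gave 6 higher and 2 lower of 33 tested (24.2%, also near that share), with a median of 0.12 (0.02 with median ratio scaling). Cbx8, a chromodomain protein of Polycomb repressive complex 1, rose by 1.09 (SE 0.17, limma adjusted p = 0.00514) and overlapped through DKO+Dnmt3b1. Suz12, a core subunit of Polycomb repressive complex 2, was at 65.1, 109 and 157 RPKM against 89.7, 65.2, 64.6 and 51.6 (0.71, SE 0.14, limma adjusted p = 0.0109). Cbx8 and Suz12 are on chromosome 11, whose genes were higher as a whole, with a chromosome median of 0.36. Suz12 lost the call without DKO+Dnmt3a2.

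Imprinted genes, expressed from 1 parental allele under the control of methylated regions, were called in 7 of 24 paternally (29.2%) and 2 of 20 maternally expressed genes tested (10%), against 21.1% of all genes. Peg3, a paternally expressed zinc finger gene, was at 24.4, 44.0 and 63.6 RPKM in the TKO family and at 21.1, 10.98, 11.9 and 17.4 in the DKO family, with WT at 14.1 and no overlap (1.59, SE 0.15, limma adjusted p = 0.000627). H19, a maternally expressed noncoding RNA, was at 89.8, 279 and 391 RPKM against 157, 66.9, 65.6 and 57.8, with WT at 29.8 (1.55, SE 0.34, limma adjusted p = 0.0161). Within the TKO family H19 was lowest with Dnmt3a1 put back, at 89.8 and 109 RPKM. Ascl2, a maternally expressed trophoblast factor, rose by 1.35 with no overlap (SE 0.21, limma adjusted p = 0.00534). Plagl1 and Dlk1 rose by 0.85 and 0.79. Magel2 was at 0.502 RPKM or less in the TKO family and at 0.654 or more in the DKO family, and fell by 1.11 (SE 0.22, limma adjusted p = 0.011). The medians were 0.09 for paternally and 0.20 for maternally expressed genes, and with chromosome medians removed the second was -0.01. Without DKO+Dnmt3a2, Peg3 and Ascl2 kept the call and H19, Plagl1, Dlk1 and Magel2 lost it (limma adjusted p = 0.094, 0.17, 0.16 and 0.058).

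Interferon-stimulated and double-stranded RNA sensing genes gave 9 higher and 2 lower of 41 tested (26.8%, near the 21.1% of all genes), with a median of 0.55. Beside Ube2l6, the rises included Oas1a and Oas1c, of the family whose active members make the activator of RNase L. Oas1a was at 2.97, 5.43 and 7.77 RPKM in the TKO family and at 2.30, 1.90, 1.42 and 4.06 in the DKO family (1.02, SE 0.25, limma adjusted p = 0.0256). Oas1c was at 1.08, 2.35 and 2.62 RPKM against 1.18, 0.557, 0.425 and 0.635 (1.11, SE 0.20, limma adjusted p = 0.0089). Ifi35, on chromosome 11, was at 5.31, 9.91 and 12.02 RPKM against 2.75, 4.43, 1.53 and 6.11 (1.33, SE 0.28, limma adjusted p = 0.0141). The median was 0.31 between the parents, 0.06 with Dnmt3a1, 1.23 with Dnmt3a2 and 0.41 with Dnmt3b1. It was largest at the add-back where the fibroblast marker medians differed most (2.01), and the part of feeder RNA was not tested. With the fibroblast level as a covariate 4 of the 11 kept the call (1123 of 2996 over all genes), and the list's median was 0.24. Without DKO+Dnmt3a2 2 kept it, Ube2l6 and Ifi35, with a median of 0.24, and Oas1a and Oas1c had limma adjusted p = 0.12 and 0.059. Targets of p53 gave 4 higher and 0 lower of 24 (16.7%, under the 21.1% of all genes) and limma put 0 lower at an unadjusted p under 0.05. Among them Pmaip1 (Noxa), an apoptosis inducer, was at 22.9, 26.7 and 51.3 RPKM against 17.8, 10.9, 6.66 and 15.6 (1.38, SE 0.25, limma adjusted p = 0.00819), and Pmaip1 had limma adjusted p = 0.056 without DKO+Dnmt3a2.

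Glutathione transferases and peroxidases, which detoxify electrophiles and peroxides, gave 7 higher and 1 lower of 30 (26.7%, near the 21.1% of all genes), with a median of 0.37. Gstp2 was at 32.8, 63.8 and 78.3 RPKM in the TKO family and at 48.8, 20.1, 17.7 and 15.2 in the DKO family (1.35, SE 0.21, limma adjusted p = 0.00541). Gstp1 and Gstp2 are close copies that share reads. Gsta3 rose by 0.86 with no overlap (SE 0.18, limma adjusted p = 0.0138). Gstt2 fell by 0.92 (SE 0.19, limma adjusted p = 0.0141). Without DKO+Dnmt3a2 2 of the 8 kept the call and the median was 0.24. Enzymes that build and transfer the dolichol-linked N-glycan gave 6 higher and 2 lower of 30 (26.7% as well), with a median of 0.17, and 1 higher and 3 lower with median ratio scaling. Alg8, a glucosyltransferase of the endoplasmic reticulum, was at 8.07, 9.78 and 10.2 RPKM against 2.29, 3.59, 2.69 and 3.67, with WT at 3.03 and no overlap (1.49, SE 0.14, limma adjusted p = 0.000707). Alg13, the X-linked partner of Alg14 in adding the second sugar, formed 2 levels within the TKO family. It was at 59.5 and 49.0 RPKM with Dnmt3a1 and at 47.3 with Dnmt3b1 put back, and at 8.78 in TKO and 6.74 and 7.42 with Dnmt3a2 put back. All 6 were below the DKO family's 105, 80.3, 87.9 and 71.1 (fell by 2.05, SE 0.51, limma adjusted p = 0.0249). Without DKO+Dnmt3a2, DKO, TKO or the second library of TKO+Dnmt3a2 Alg13 lost the call (limma adjusted p up to 0.13), and Alg8 kept it in all 10. The 37 complex I genes, Ndufs5 among them, gave 5 higher and 2 lower (18.9%, under the 21.1% of all genes), with a list median of 0.11, the same as all genes.

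Metallothioneins and some gene clusters were looked at after their values were seen. Over all genes tested, 14.4% rose and 6.69% fell, and in 6.73% all TKO libraries lay above all DKO libraries. All 4 metallothioneins tested, cysteine-rich proteins that bind zinc and copper, rose without overlap. Mt2 was at 631, 703 and 854 RPKM in the TKO family and at 346, 127, 144 and 122 in the DKO family, with WT at 110 (2.14, SE 0.21, limma adjusted p = 0.000797). Mt1 was at 424, 478 and 619 RPKM against 279, 75.2, 85.7 and 106 (2.13, SE 0.26, limma adjusted p = 0.00228). Mt4 and Mt3 rose by 2.75 and 1.62, and all 4 kept the call whichever single library was left out. The DKO parent was the highest DKO family library for Mt1 and Mt2. Of 39 replication-dependent histone genes of the Hist1 cluster, 19 rose and 0 fell (0 also at an unadjusted p under 0.05 in limma), and all 39 differences were above 0 (median 0.79). Hist1h4i was at 15.4, 20.5 and 32.3 RPKM against 2.76, 5.45, 3.88 and 9.04 (2.05, SE 0.29, limma adjusted p = 0.00344). These transcripts mostly lack polyA tails, so polyA libraries sample them in part, and 4 of the 19 kept the call without DKO+Dnmt3a2. Of 20 class I histocompatibility genes 11 rose and 0 fell (median 0.98, 0 lower at an unadjusted p under 0.05 in limma), among them H2-K1 at 45.5, 58.1 and 80.1 RPKM against 43.3, 22.1, 11.02 and 25.9 (1.46, SE 0.24, limma adjusted p = 0.00673). Their median was 0.54 with the fibroblast level as a covariate and 0.50 without DKO+Dnmt3a2, where 4 of the 11 kept the call.

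The Y chromosome differed throughout. Eif2s3y, which encodes a subunit of translation initiation factor eIF2, was at 0.427, 0.652 and 4.14 RPKM in the TKO family, 0.312 in WT and 26.7, 41.4, 39.5 and 39.4 in the DKO family (fell by 4.53, SE 0.32, limma adjusted p = 0.000199). Zfy1 was listed at 0 in all 6 TKO libraries and WT, while the DKO family ran from 2.84 to 4.13 RPKM. Uba1y was at 0.019 RPKM or less in TKO and WT and at 5.42 to 13.97 in DKO. Of 6 Y-linked genes tested 5 fell (83.3% called, against 21.1% of all genes). Their list median of -3.05 was 0.11 with chromosome medians removed, since that takes out what the Y-linked genes share. The highest TKO family values of Eif2s3y, Ddx3y and Uty (4.14, 3.43 and 1.29 RPKM) were in TKO+Dnmt3b1, the library with the highest fibroblast marker sum, and the part of feeder RNA in them was not tested. Presence of Y transcripts and of Dnmt1 go together in these 10 libraries and cannot be told apart, while WT has Dnmt1 and lists Zfy1 and Uba1y at 0. X-linked genes with a Y copy or a role in X inactivation gave 4 lower and 0 higher of 11. That is 36.4% called, against 21.1% of all genes. The median of the list was -0.24, and limma put 1 higher at an unadjusted p under 0.05. Kdm6a (Utx), an H3K27 demethylase whose Y copy is Uty, was at 9.53, 11.1 and 13.7 RPKM against 13.3, 17.8, 19.4 and 16.1 (fell by 0.56, SE 0.13, limma adjusted p = 0.0207). Kdm5c fell by 0.31 and Tsix by 0.57. Tsix lies antisense to Xist, and a library without strand cannot tell their reads apart. Kdm5c lost the call whichever library was left out and Tsix in 8 of the 10 fits, and none of the 4 kept it without DKO+Dnmt3a2.

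Calls were unevenly spread over chromosomes 11 and 8. On chromosome 11, 381 of 1211 genes tested rose (31.5%) and 17 fell (1.4%), with a median of 0.36. On chromosome 8, 97 of 773 rose (12.5%, against 14.4% of all genes) and 147 fell (19%, against 6.69%), with a median of -0.06. Chromosome 11 was low in all 4 DKO libraries, by 0.172 to 0.269 below the gene means. It was high in TKO (0.271) and in the second library of TKO+Dnmt3a1 (0.319), at 0.097 and 0.142 with Dnmt3a2 put back, and near 0 in the other 2. Chromosome 8 was at 0.264 in TKO and from -0.201 to 0.001 in the 5 TKO add-back libraries, against 0.02 to 0.082 in the DKO family, so the TKO parent lay above the DKO libraries there and its add-backs below. A gain or loss of a chromosome in a line and the loss of Dnmt1 cannot be told apart here. Zfp42, Triml2, Kbtbd11 and the metallothioneins are on chromosome 8, and Mapt and Rps15a-ps6 on chromosome 11. With chromosome medians removed Zfp42 and its 4 neighbours still fell and the 4 metallothioneins still rose, with medians of -1.90 and 2.21.

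Called genes also lay in runs. There were 17 runs of at least 5 tested neighbours all called higher (95 genes), 5 of them with 27 genes on chromosome 11. There were 6 runs all called lower (34 genes), 4 of them with 23 genes on chromosome 8. The longest, 10 genes on chromosome 12 from Cyp46a1 to Dlk1, had a median difference of 0.77. Among the other runs were Zscan4a to Zscan4f, Xlr3b to Xlr3c and Bbs2 to Mt1. The Zscan4 genes and the Xlr3 and Xlr4 genes are close copies that share reads. How many runs the share of genes called would give was not worked out.

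**Figure D5:**
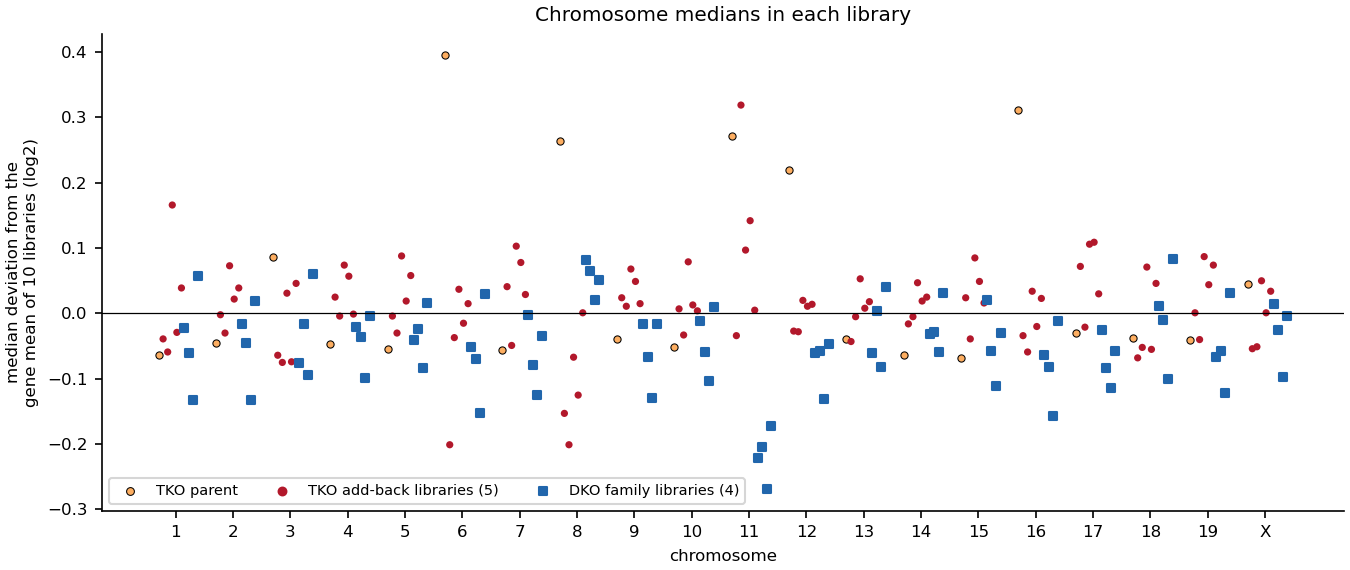
Median deviation of the genes of each chromosome from the gene means over the 10 libraries (log2), for every library. Circles are the TKO family, with the TKO parent in orange, and squares are the DKO family. All 4 DKO libraries are lowest on chromosome 11, and the TKO parent stands high on chromosomes 6, 8, 11, 12 and 16. The Y chromosome is not shown.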

How the data were processed

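PolyA RNA (RNeasy extraction, TruSeq RNA kit v2, which keeps no strand) was sequenced from 11 libraries, per the labels' protocols. The deposited table holds 1 RPKM value per gene and library for 24016 genes. Per the submitters' processing notes the tools include bcl2fastq 1.8.4 and STAR 2.4.0 with the mouse build mm9, and how the authors counted reads that match several places is not given in the sources used here. Because the values are RPKM, no count test was used. The spacing of low values gave each library's implied read total, with at least 99.2% of values whole within 0.05, and 1 read in a transcript of 2 kb was worth 0.0152 to 0.023 RPKM.

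The 14196 genes that reached 1 RPKM in any of the 10 libraries were fitted on log2(RPKM + 0.5) with limma 3.58.1 in R 4.3.3 as family plus add-back, with a trend in eBayes, two-sided tests and Benjamini-Hochberg adjustment over all genes tested. The groups came from the labels. No label tells if the pair of libraries from 1 line came from separate cultures, so the spread within a pair may be technical. The chromosome 11 median was -0.034 in the first library of TKO+Dnmt3a1 and 0.319 in the second, and the source of that difference was not tested. The main fit has 5 residual degrees of freedom, which also take in departures of single lines from the sum of family and add-back. Its p-values measure only the spread between these samples. A second fit on 8 group means tested whether the family difference of the parents differed from that of the add-backs. Single genes are named by a rule: the 15 largest rises and 15 largest falls among called genes with a mean of 1 RPKM in a family and no predicted or clone name, and up to 4 called members of each list. The members, lists and tests were chosen with earlier results of these data known. The fit was tested on simulated data. Leaving out each library, 3 other scalings, other pseudocounts, filters and models were tried. Tables were joined with pandas 2.3.3 in Python 3.11.15.

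Promoter bases and the order of neighbouring genes came from RefSeq on GRCm38.p6, while the deposited values rest on mm9. Accessions matched 23163 genes, symbols 713 and synonyms 84, with 56 unmatched. Promoters matched 76.8% of the genes tested, under the 80% needed, so a comparison of CG content between called and other genes is void and none is given. A result for 1 gene is not reported here.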

Additional observations from a re-analysis of the deposited data

Results flagged for a closer look

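In 14 of 228 groups of 4 to 6 libraries the highest or lowest value of a named gene stood apart from the others in its family by Dixon's test. Chance sets apart about 1 in 20 groups of like samples, and 14 of 228 is near that share. The lines of a family differ in the enzyme put back, so they are not like samples. In the TKO family 5 of these were TKO+Dnmt3b1, the library with the most fibroblast and macrophage marker RNA. Lyz2, the macrophage lysozyme, was at 193 RPKM there and at 21.5 to 30.5 in the other 5 libraries. Mapt was at 4.35 RPKM in TKO+Dnmt3b1 against 7.23 to 8.81, and Tfap2c at 18.2 against 37.3 to 54.9. Gstp2 was at 32.8 RPKM against 61.6 to 78.3, and Esrrb at 56.4 against 91.1 to 114. The TKO parent stood high in Dppa3 (118 RPKM against 29.6 to 45.3), Gadd45a (78.9 against 44.6 to 55.2) and Cited1 (10.7 against 2.30 to 3.98).

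In the DKO family all 6 were the DKO parent. It was high in Xlr3c, at 21.5 RPKM against 0.154 to 0.498 in its add-back lines, in H19, at 157 against 57.8 to 66.9, and in Gdf15, at 13.7 against 3.13 to 4.07. Rpn1, a subunit of the oligosaccharyltransferase, was at 64.9 RPKM there against 42.5 to 44.9. It was low in Eif2s3y, at 26.7 RPKM against 39.4 to 41.4, and in Zbtb33, at 4.95 against 7.35 to 7.56. The part of feeder RNA, of line or of add-back in these values was not tested.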

How the results depend on the processing

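The count of 2996 called genes ranged from 650 (without DKO+Dnmt3a2) to 3248 (without DKO) when 1 library was left out. It was 1183 with family alone in the model, 1820 with 8 group means, 1686 with the libraries of a line averaged, 1148 with the fibroblast covariate, 1788 without both Dnmt3b1 libraries and 119 without these and DKO+Dnmt3a2, a setting chosen after seeing the data, as was leaving out both parents (3244). Fewer samples enter the last fits, and beyond that the cause was not tested. With either parent, or the only library of another add-back state in a family, left out, its counterpart carries no weight on the family difference. The difference of library 1 minus library 2 correlated at 0.086 across genes between TKO+Dnmt3a1 and TKO+Dnmt3a2. This value cannot show whether libraries of the same number shared a batch. With a replicate block 1691 genes were called (1179 higher, 512 lower). Pseudocounts, filters, trend and scaling gave 2697 to 3049 genes, which were not all the same genes. Of the 2996, 2172 were also called with quantile normalization, 2258 with no filter on low values and 2419 with median ratio scaling. With pseudocounts of 0.1 and 1, 2965 and 2949 were. The test of the parents against the add-backs called 0 genes, but 60 (28 higher, 32 lower) with no filter on low values and 2 (0 higher, 2 lower) with the replicate block. The number of genes with libraries not overlapping between families, 1424, became 1502 to 3201 with 1 library left out, the most without DKO, and 2308 without DKO+Dnmt3b1. Of 110 called genes named by the rule, 25 kept the call under all 28 alternatives, among them Ndufs5, Ube2l6, Cyct, Zfp42, Triml2, Dnmt1, Peg3, Tfap2c, Eomes and Alg8, and 85 lost it under at least 1. Lyz2, not called, ran from -0.18 (without DKO+Dnmt3a2) to 2.2 (without TKO) with 1 library left out, and was at -0.02 with the fibroblast covariate and -0.30 without both Dnmt3b1 libraries and DKO+Dnmt3a2. With chromosome medians removed, which takes out the Y-linked difference by construction, Ddx3y, Zfy1 and Uty were at 0, 0.21 and 0.22. Values listed at 0 allow no fold. Within the 10 libraries, line, Y transcripts, the low chromosome 11 level of the DKO family and Dnmt1 cannot be told apart. WT, in no test, has Dnmt1, and its Y-linked genes summed to 1.056 RPKM, against 46.22 to 88.01 in the DKO family.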
